A study of Mus musculus with 15 samples.

Results

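Of the 19500 genes that the arrays measured under a single gene symbol, 10 are described here: the Eph receptor genes Epha3, Epha4, Epha5, Epha7 and Epha8, and the ephrin genes Efna2, Efna3, Efna5, Efnb2 and Efnb3. They were taken by name from the platform's annotation, each through its highest probe set on average, and each of the 10 had 1 probe set only. The mice carried Tg(Pcp2-L10a-Egfp), a transgene that tags the ribosomal protein L10a with green fluorescent protein under the promoter of the Purkinje cell gene Pcp2. The 15 arrays hold RNA captured from pooled cerebella through those tagged ribosomes, from mice 0, 7, 15, 21 or 56 days after birth (written P0 to P56), with 3 arrays per age. Every age carried the transgene, cycloheximide was in the homogenate throughout, and neither strain nor sex is given by the labels. RNA of the whole cerebellum and captures from animals lacking the tag were not analysed here, so a level is not an enrichment. Values are log2 signals, and a change is the later age minus the earlier one. A change was called where its adjusted p in limma, over all 22092 probe sets of that comparison, was under 0.05.

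Eph receptors are receptor tyrosine kinases of the cell surface, and ephrins are their ligands, which stay attached to the neighbouring cell. Ephrins of the A class are held by a lipid anchor and those of the B class cross the membrane, and on contact both sides can signal, which often makes a growing axon turn away. In the cerebellum, A-class receptors and ligands are known from parasagittal bands of developing Purkinje cells, and they help to order the incoming climbing fibres. In older neurons the same proteins act at synapses and dendritic spines.

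All 10 genes, which were chosen with earlier results of these data known, were lower at P56 than at P0. The medians of the log2 changes were −1.37 over the 10 genes and 0.085 over all probe sets. The largest change was that of Efnb3, a B-class ephrin known as a midline barrier for axons in the mouse spinal cord, whose signal was 7.77-fold lower at P56 than at P0. Next came Efna2, an A-class ephrin known from retinal axon mapping, which was 6.74-fold lower. The smallest was that of Epha8, at 1.25-fold. In limma's test, the 10 calls had adjusted p-values between 2.08e-16 (Efna2) and 6.56e-04 (Epha8), and the background was high: 35.3% of all probe sets were called lower at P56 and 40.1% higher. The 3 arrays of P56 lay below all 3 of P0 for each of the 10 genes, as they did for 35.4% of all probe sets. With every array's median set to 0, the median change of all probe sets moved to 0.41, 9 of the 10 genes were called lower, and Epha8 stood at 0.0012 without a call. Under quantile normalization Epha8 was at −0.11, also without a call. Over all 5 ages, limma's F-test called each of the 10 genes and 81.6% of all probe sets.

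**Figure D1:**
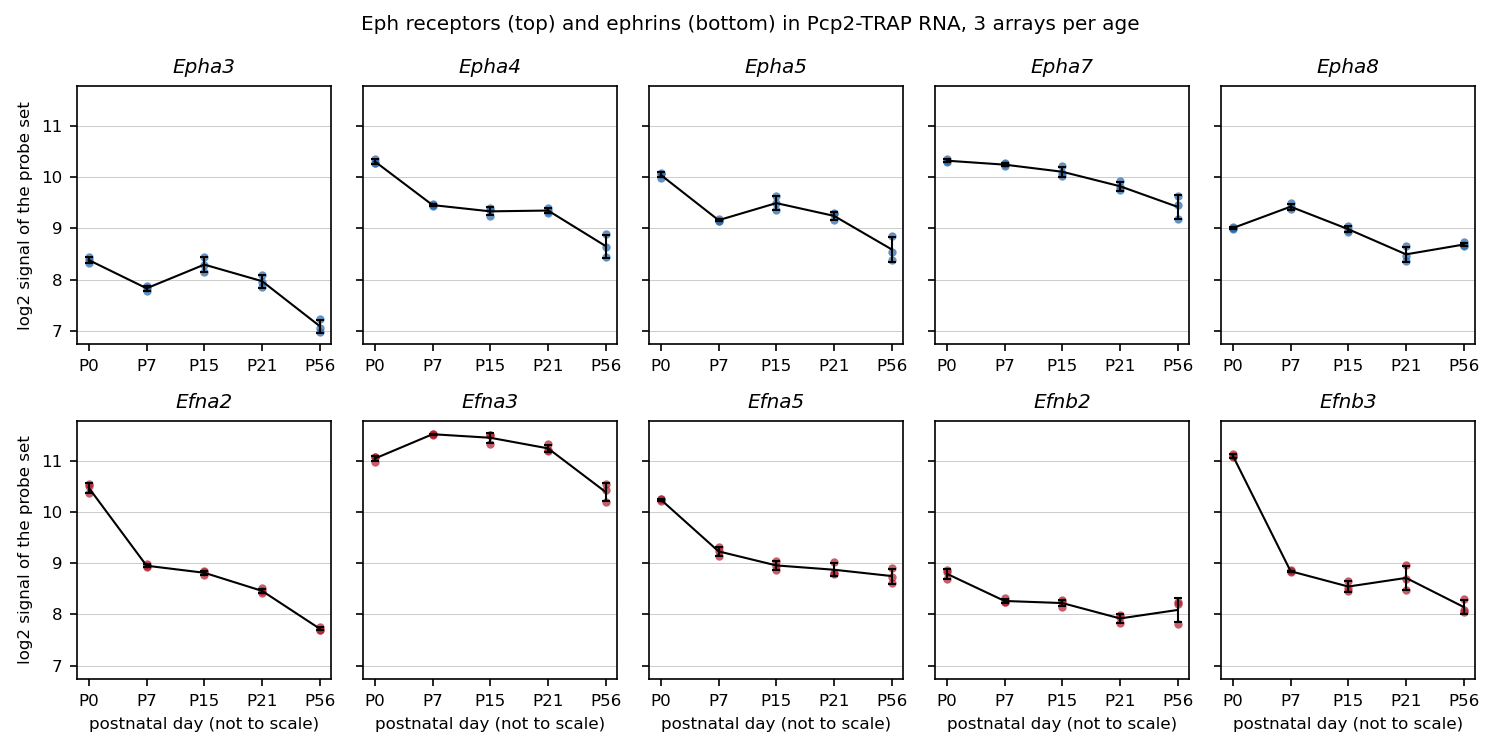
Log2 signal of the 10 genes (vertical axis) at the 5 ages (horizontal axis, not to scale), with 1 point per array, and the mean and SD of 3 arrays in black. Efnb3 and Efna2 drop between P0 and P7, Efna3 and Epha8 are highest at P7, and Epha7 declines late.

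The captured RNA changed in makeup between P0 and P7. Arrays of the same age correlated at 0.994 to 0.999 over all probe sets, P7 with P0 at 0.915 to 0.919, and P7 with P15 at 0.991 to 0.994. The summed level of 16 measured Purkinje cell markers, as a mean log2 signal, was 9.47 to 9.52 over the arrays of P0, 12.65 to 12.68 at P7, and 12.80 to 12.84 at P56. Its defining genes Pcp2 and Calb1 averaged 13.71 and 13.76 at P56 and 8.53 and 10.93 at P0. Pcp2, whose promoter drives the tag, was thus lower at P0 than at P56, though above the medians of the P0 arrays (7.91 to 7.93). Pvalb, at 13.74 at P56, was the lowest of the 3 at P0. By contrast, the list mean of 15 brainstem and nuclear neuron genes was 7.09 to 7.23 at P7 and 8.62 to 8.64 at P0. That of 14 interneuron genes was 8.64 to 8.80 at P7 and 10.21 to 10.22 at P0, and that of 16 endothelial and mural genes was 7.08 to 7.12 at P7 and 8.77 to 8.81 at P0. Of those lists, 12 of 15, 12 of 14 and 16 of 16 genes were called lower at P7 than at P0, as were 28.5% of all probe sets, with 33.6% higher. Of 13 microglial genes, 10 fell and 1 rose (median −0.86), and of 15 astrocyte and Bergmann glia genes, 10 fell and 3 rose (median −0.68). Not every other list fell. At that step 8 of 15 granule cell genes rose and 4 fell (median 0.82), and 9 of 14 oligodendrocyte genes rose and 5 fell (median 1.34). Below the lower quartile lay the granule cell gene Gabra6 at P0, the microglial gene Aif1 at every age, and Tbr1, a defining gene of the brainstem and nuclear list, at every age but P15. The cell cycle genes Mki67 at P21 and Top2a at P56 lay there too. The part of these cells in the changes from P0 was not tested. In such bulk RNA, fewer cells of a type and less RNA per cell cannot be told apart.

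**Figure D2:**
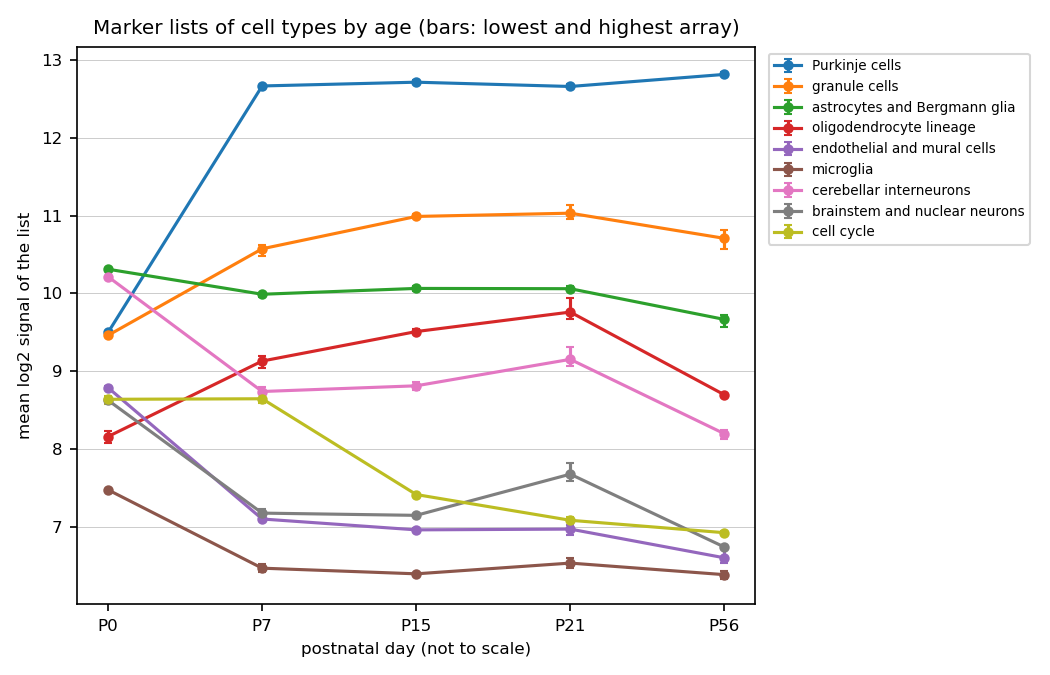
Mean log2 signal of 9 marker lists (vertical axis) at the 5 ages (horizontal axis, not to scale); points are means of 3 arrays and bars run from the lowest to the highest array. The Purkinje cell list is at 9.50 at P0 and between 12.66 and 12.81 at the 4 later ages. The brainstem, interneuron, endothelial, microglial and astrocyte lists are highest at P0.

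From P7 on, the Purkinje cell list stayed within 12.63 and 12.84 on every array, so the comparison of P56 with P7 leaves out the large step in the markers. Other lists still moved: 15 of 15 cell cycle genes fell, with list means of 6.89 to 6.95 over the arrays of P56 and 8.60 to 8.73 over those of P7. So did 12 of 16 endothelial and mural genes (median −0.49), 10 of 15 brainstem and nuclear neuron genes (−0.51), 9 of 14 oligodendrocyte genes (−0.49), 8 of 15 astrocyte and Bergmann glia genes (−0.22) and 7 of 14 interneuron genes (−0.20). In the same order of lists, 0, 1, 1, 4 and 3 genes rose. Of 13 microglial genes, 2 fell and 1 rose (median −0.09). Of the granule cell genes, 9 of 15 rose and 5 fell (median 0.31). Within the Purkinje cell list, 10 of 16 genes rose and 4 fell (median 0.27). The part of all these lists was not tested. Of the 10 genes, 9 fell between these ages and 0 rose, against 34.2% of all probe sets lower and 25.4% higher. Efnb2 was the gene not called, at −0.18 (SE 0.10, limma adjusted p 0.124). Without P56 replicate 3 its change was −0.25 and was called (limma adjusted p 0.0418), and the sign turned with array medians set to 0 (0.089) or quantile normalization (0.12). The arrays of the ages did not overlap for those 9 genes, and 35.8% of all probe sets were lower without overlap. Median changes were −0.74 over the 10 genes and 0.0018 over all probe sets, and the second moved to 0.27 with array medians set to 0. Efna2 (−1.23, SE 0.06) and Efna3 (−1.13, SE 0.08) fell most, and Efna5 (−0.48, SE 0.09) fell least. The Efna5 call ended under quantile normalization (−0.18, limma adjusted p 0.0617).

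Among the receptors, Epha4 binds ephrins of both classes and steers axons away from the midline. The arrays gave Epha4 10.29, 10.36 and 10.28 at P0, 9.44, 9.46 and 9.48 at P7, 9.39, 9.24 and 9.36 at P15, 9.41, 9.30 and 9.34 at P21 and 8.44, 8.64 and 8.88 at P56. It was highest at P0 and lowest at P56, with a plateau between: neither P21 against P7 nor P21 against P15 was called. The fall by P7 was 0.85 (SE 0.09, limma adjusted p 1.32e-07) and the fall from P21 to P56 was 0.70 (SE 0.09, limma adjusted p 3.12e-06).

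Epha5, a receptor of A-class ephrins that is abundant in brain neurons, had a second, smaller high. Epha5 had 10.08, 10.07 and 9.99 at P0, 9.19, 9.15 and 9.14 at P7, 9.49, 9.36 and 9.63 at P15, 9.27, 9.16 and 9.30 at P21 and 8.38, 8.53 and 8.85 at P56. It fell by 0.88 (SE 0.10, limma adjusted p 3.54e-07) up to P7, and its P15 arrays lay above all P7 arrays, with a change of 0.33 (SE 0.10, limma adjusted p 0.0196). That rise was no longer called without P7 replicate 2 (0.33), P7 replicate 3 (0.32), P15 replicate 1 (0.33) or P15 replicate 3 (0.27). The value at P21 was −0.25 against P15 and missed the threshold (limma adjusted p 0.0953). It was called with medians set to 0 and under quantile normalization (both −0.29). It was also called without P56 replicate 1 or P56 replicate 3, which leave the change itself as it was. P21 against P7 was not called (0.08, limma adjusted p 0.619). The step to P56 was −0.66 (SE 0.10).

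Epha3, the receptor that binds Efna5 in axon repulsion, followed a similar zigzag. The arrays gave Epha3 8.38, 8.33 and 8.44 at P0, 7.78, 7.87 and 7.84 at P7, 8.44, 8.15 and 8.29 at P15, 7.96, 7.85 and 8.10 at P21 and 7.06, 6.98 and 7.23 at P56. P15 stood above P7 by 0.46 (SE 0.09, limma adjusted p 7.47e-04) without overlap, and overlapped P0, from which it was not called different (−0.09, SE 0.09, limma adjusted p 0.391). P21 and P7 likewise overlapped in the order of level. It then fell by 0.32 up to P21 and by 0.88 up to P56 (SE 0.09, limma adjusted p 1.48e-07), its largest step. The call for P21 against P15 ended without P15 replicate 1 (−0.25) or P21 replicate 2 (−0.26).

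Epha7, known in mouse for its part in cortical mapping and for short isoforms without the kinase, had its falls late. Epha7 had 10.32, 10.35 and 10.30 at P0, 10.27, 10.25 and 10.21 at P7, 10.09, 10.02 and 10.21 at P15, 9.92, 9.75 and 9.80 at P21 and 9.18, 9.45 and 9.63 at P56. Neither P7 against P0 (−0.08, SE 0.09, limma adjusted p 0.496) nor P15 against P7 (−0.14, limma adjusted p 0.344) passed the test, although quantile normalization called the first (−0.23) and array weights the second (−0.16). P21 lay below P15 by 0.28 (limma adjusted p 0.0436), a call that ended without any 1 of 10 arrays: the 3 of P0, the 3 of P7, P15 replicates 1 and 3, and P21 replicates 2 and 3 (changes of −0.29 to −0.23, limma adjusted p 0.0549 to 0.176). It also ended with the replicate number as a block (limma adjusted p 0.0535). Its largest fall was the last one, at −0.40 (SE 0.09, limma adjusted p 0.00128), which lost its call with medians set to 0 (−0.17) and under quantile normalization (−0.15). The fall from P7 to P56 was called in both of these.

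Epha8, known in mouse from axons that leave the midbrain, was the receptor that rose early. The arrays gave Epha8 8.98, 9.03 and 9.01 at P0, 9.49, 9.41 and 9.38 at P7, 9.05, 8.94 and 8.97 at P15, 8.37, 8.46 and 8.65 at P21 and 8.66, 8.67 and 8.73 at P56. The 3 P7 arrays lay above all others, and P7 exceeded P0 by 0.42 (SE 0.07, limma adjusted p 6.07e-05). Falls of 0.44 up to P15 (limma adjusted p 2.65e-04) and of 0.49 up to P21 (limma adjusted p 1.57e-04) followed. P15 and P0, next to each other in level, overlapped (−0.02, limma adjusted p 0.805). From P21 to P56 it rose by 0.19 (SE 0.07, limma adjusted p 0.0315). That rise lost its call without P21 replicate 1 (0.13), P21 replicate 2 (0.18) or P56 replicate 3 (0.17), and with array weights (0.23).

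Of the ephrins, Efnb3 had the steepest first step. Efnb3 had 11.10, 11.07 and 11.14 at P0, 8.86, 8.84 and 8.84 at P7, 8.46, 8.66 and 8.51 at P15, 8.48, 8.70 and 8.96 at P21 and 8.31, 8.08 and 8.05 at P56. P7 was below P0 by 2.26 (SE 0.10, limma adjusted p 1.66e-12), a 4.78-fold difference. The further fall up to P15 (−0.30, limma adjusted p 0.0381) was lost without P7 replicate 1 (−0.29), P7 replicate 2 (−0.30), P7 replicate 3 (−0.30), P15 replicate 1 (−0.26) or P15 replicate 3 (−0.28), with medians set to 0 (−0.23), under quantile normalization (−0.24), and with the replicate number as a block (limma adjusted p 0.0528). The 3 P21 arrays spread from 8.48 to 8.96 and overlapped those of P15. P56 lay below P21 by 0.57 (SE 0.10, limma adjusted p 1.16e-04).

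Efna2 fell at most steps. The arrays gave Efna2 10.37, 10.51 and 10.55 at P0, 8.98, 8.94 and 8.93 at P7, 8.83, 8.84 and 8.76 at P15, 8.51, 8.42 and 8.46 at P21 and 7.70, 7.76 and 7.70 at P56. The ages kept the order of their days, and 3 of the 4 neighbouring pairs were called: P7 against P0 (−1.52, SE 0.06, limma adjusted p 7.11e-13), P21 against P15 (−0.35, SE 0.06) and P56 against P21 (−0.74, SE 0.06, limma adjusted p 2.99e-08). P15 against P7 was at −0.14 (limma adjusted p 0.140) although the arrays did not overlap.

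Efna5, the partner of Efna2 in guiding retinal axons, had most of its fall early. Efna5 had 10.25, 10.22 and 10.26 at P0, 9.33, 9.23 and 9.14 at P7, 8.95, 8.87 and 9.05 at P15, 8.80, 8.80 and 9.02 at P21 and 8.74, 8.61 and 8.90 at P56. The first step was −1.01 (SE 0.09, limma adjusted p 9.10e-09). The next, −0.27 up to P15 (limma adjusted p 0.0262), ended without P7 replicate 1 (−0.23), P7 replicate 2 (−0.27), P15 replicate 1 (−0.27) or P15 replicate 2 (−0.23). It ended with medians set to 0 (−0.21) and under quantile normalization (−0.23) too. From P15 on, arrays of neighbouring ages overlapped and neither step was called, while P56 against P15 was −0.21 (limma adjusted p 0.0477), also with overlapping arrays. The sign of P56 minus P21 (−0.12) turned with medians set to 0 (0.11) and under quantile normalization (0.17).

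Efna3, known in hippocampus as the astrocyte ligand of Epha4 on dendritic spines, took the opposite first step. The arrays gave Efna3 11.09, 10.98 and 11.07 at P0, 11.53, 11.51 and 11.52 at P7, 11.51, 11.51 and 11.34 at P15, 11.19, 11.22 and 11.32 at P21 and 10.20, 10.54 and 10.42 at P56. All 3 P7 arrays were above all 3 P0 arrays, by 0.48 (SE 0.08, limma adjusted p 5.85e-05). P15 overlapped P7 (−0.07, limma adjusted p 0.649). P21 minus P15 was −0.21 (limma adjusted p 0.0948) and was called without P56 replicate 1, with array weights (−0.24), with medians set to 0 (−0.25) and with the dimmest probe sets removed. The step to P56 was its largest, −0.85 (SE 0.08, limma adjusted p 1.13e-07), and P56 was the lowest age. Astrocyte and Bergmann glia markers, 15 genes, had list means of 10.29 to 10.33 at P0, 9.95 to 10.01 at P7 and 9.56 to 9.72 at P56, and of them 3 rose and 10 fell between P0 and P7. The part of these cells in the Efna3 signal was not tested.

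Efnb2, a B-class ephrin that also marks arterial endothelium, had the smallest difference between P56 and P7 among the ephrins. Efnb2 had 8.88, 8.69 and 8.82 at P0, 8.24, 8.32 and 8.24 at P7, 8.28, 8.24 and 8.15 at P15, 7.95, 7.83 and 7.98 at P21 and 8.21, 7.82 and 8.24 at P56. P7 was below P0 by 0.53 (SE 0.10, limma adjusted p 9.29e-05), a step at which all 16 endothelial and mural markers fell, with Cldn5, Cdh5 and Pecam1 at 8.60, 7.09 and 6.75 at P7 against 10.64, 10.33 and 8.22 at P0. The part of these cells in the Efnb2 change was not tested. Of the 4 neighbouring pairs in its order of level, P7 and P0 was the 1 pair called. P21 minus P15 (−0.30, limma adjusted p 0.0380) was lost when any 1 of 8 arrays was left out: P7 replicates 1 and 3 and all arrays of P15 and P21 (changes of −0.34 to −0.26, limma adjusted p 0.0501 to 0.129). P56 minus P21 was 0.17 (limma adjusted p 0.149), with P56 replicate 2 at 7.82 and the other P56 arrays at 8.21 and 8.24. Without P56 replicate 2 it was 0.30 and was called (limma adjusted p 0.00313), as it was with medians set to 0 (0.40) and under quantile normalization (0.43).

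Set beside each other by step, the genes divided their falls mainly between the first step and the last. Between P0 and P7, 7 of the 10 fell, 2 rose (Epha8 and Efna3) and Epha7 was not called, with 28.5% of all probe sets lower and 33.6% higher. Between P7 and P15, 3 fell (Epha8, Efna5, Efnb3) and 2 rose (Epha3 and Epha5), with backgrounds of 13.6% and 10.4%. Leaving out P7 replicate 1, P7 replicate 2 or P15 replicate 1 left 1 fall, as did medians set to 0 and quantile normalization, and leaving out P7 replicate 2, P7 replicate 3, P15 replicate 1 or P15 replicate 3 left 1 rise. Between P15 and P21, 5 fell and 0 rose, with backgrounds of 7.16% and 10.5%. That count was 2 without P15 replicate 1 or P21 replicate 2, and 3 without P7 replicate 1, P7 replicate 3, P15 replicate 3 or P21 replicate 3. Among the brainstem and nuclear neuron genes, 10 of 15 rose at that step, and their list mean was 7.60 to 7.83 at P21 against 7.14 to 7.17 at P15. Between P21 and P56, 7 fell and 1 rose, with backgrounds of 34.3% and 22.1%. Of the marker lists, 13 of 14 oligodendrocyte genes (median −1.07), 11 of 15 brainstem and nuclear neuron genes (−0.79) and 10 of 14 interneuron genes (−0.72) also fell at that step, and their part in these falls was not tested. The 1 rise among the 10 genes was that of Epha8, and the count of rises was 0 without P21 replicate 1, P21 replicate 2 or P56 replicate 3 and 2 without P56 replicate 2, and it was 0 with array weights and 2 with medians set to 0 or quantile normalization.

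The largest fall came at the first step for 6 genes (Epha4, Epha5, Efna2, Efna5, Efnb2 and Efnb3), at P15 to P21 for Epha8, and at the last step for 3 (Epha3, Epha7 and Efna3). The first step held the largest fall of 2 of the 5 receptors and of 4 of the 5 ephrins. Taking the 5 ages of each gene in order of level, 21 of the 40 neighbouring pairs were called. The same count was not made over all probe sets, so it has no background here and only describes these genes. For the pairs that are not neighbouring ages, 30.5% of all probe sets were lower and 33.5% higher at P15 than at P0, and 29.5% were lower and 34.6% higher at P21 than at P0. Against P7, 13.2% were lower and 13.7% higher at P21, and against P15, 32.9% were lower and 23.1% higher at P56. Within P56, replicate 3 was the highest array for 7 of the 10 genes and replicate 1 the lowest for 6. Other ages were similarly uneven. At P21, replicate 3 was the highest for 7 and replicate 2 the lowest for 7. At P7 replicate 1 was the highest for 7, and at P15 replicate 2 was the lowest for 6. The largest SD of any gene at any age was 0.24.

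**Figure D3:**
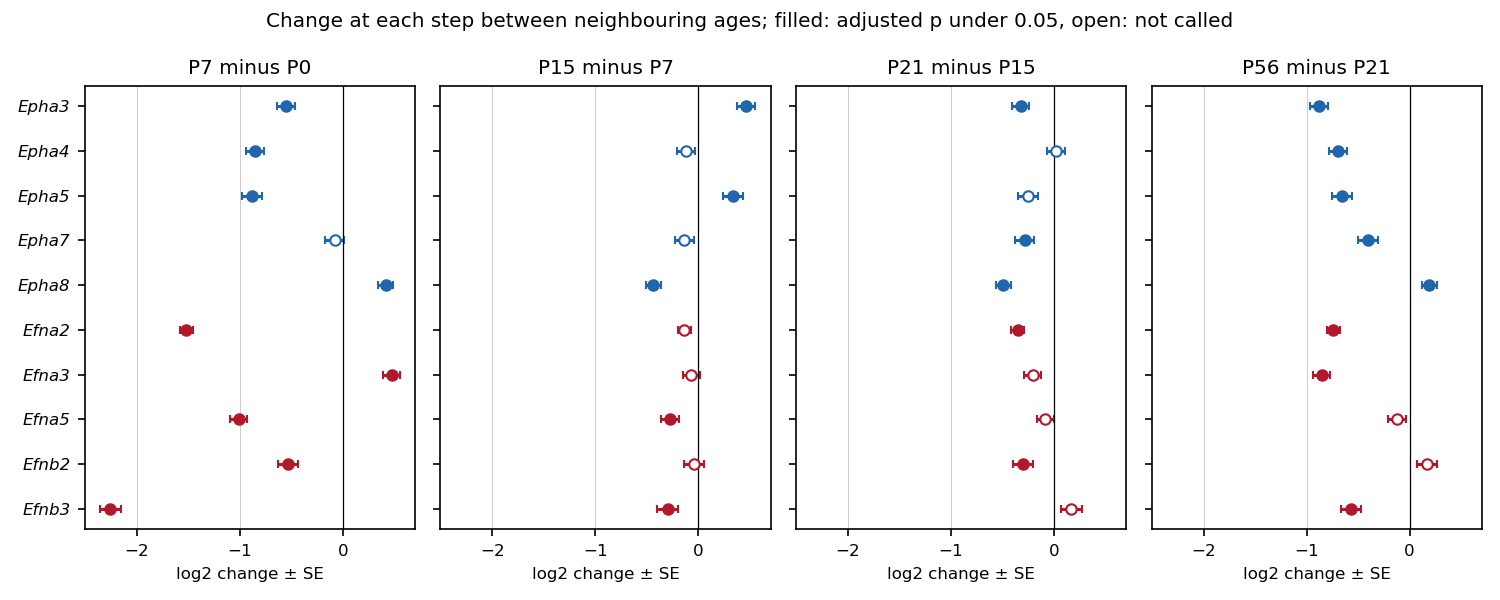
Log2 change of each gene (rows) at the 4 steps between neighbouring ages (panels), later minus earlier, with the SE of the fit, for receptors in blue and ephrins in red; filled points passed an adjusted p of 0.05. The widest spread is in the first step, between −2.26 (Efnb3) and 0.48 (Efna3).

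The 300-base windows around the transcription starts of 3 genes with unlike changes between P0 and P7 are shown: Efna2, which fell by 1.52, and Efna3 and Epha8, which rose. Each runs from 250 bases before to 50 bases after the most upstream start listed (RefSeq, GRCm38.p6), and capitals mark the GC box GGGCGG on either strand, the letters read by Sp1-type factors. The windows are chr10:80179232-80179531 (Efna2, plus strand), chr3:89322890-89323189 (Efna3, minus strand) and chr4:136956767-136957066 (Epha8, minus strand).
Efna2: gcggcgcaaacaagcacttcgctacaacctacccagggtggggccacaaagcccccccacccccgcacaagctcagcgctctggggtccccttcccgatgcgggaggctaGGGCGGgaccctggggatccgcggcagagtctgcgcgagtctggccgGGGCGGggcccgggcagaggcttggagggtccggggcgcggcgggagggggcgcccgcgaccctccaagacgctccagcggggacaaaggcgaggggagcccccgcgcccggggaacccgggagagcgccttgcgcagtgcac
Efna3: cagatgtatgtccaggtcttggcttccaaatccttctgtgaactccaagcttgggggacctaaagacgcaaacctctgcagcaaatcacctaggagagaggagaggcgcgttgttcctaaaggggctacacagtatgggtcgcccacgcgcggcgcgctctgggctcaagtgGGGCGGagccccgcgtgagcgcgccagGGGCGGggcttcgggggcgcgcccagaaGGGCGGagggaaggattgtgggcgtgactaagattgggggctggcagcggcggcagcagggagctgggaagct
Epha8: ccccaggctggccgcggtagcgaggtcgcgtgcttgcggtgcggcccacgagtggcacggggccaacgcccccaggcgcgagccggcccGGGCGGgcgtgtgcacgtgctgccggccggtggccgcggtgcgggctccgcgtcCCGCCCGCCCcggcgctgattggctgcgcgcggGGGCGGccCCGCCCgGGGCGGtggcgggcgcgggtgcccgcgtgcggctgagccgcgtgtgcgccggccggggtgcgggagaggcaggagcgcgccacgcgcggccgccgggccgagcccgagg

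The window of Efna2 holds 2 matches, that of Efna3 holds 3 and that of Epha8 holds 6, counting overlapping ones. Of the 10 genes, 9 had a window in the RefSeq table, and 8 of those held the GC box, against 35.7% of all 32851 windows. Epha3 was the gene without it. TATAAA was in 1 of the 9 windows (Efnb2) and in 13.6% of all windows, and the palindrome CACGTG was in 1 (Epha8) and in 7.15%. GC content was 60.7 to 84.3% over the 9 windows, against a median of 52.7% over all windows. A match describes letters only.

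On the chromosome map of the same assembly, Efna1, Efna3 and Efna4 lie side by side on chromosome 3 with 0 protein-coding genes between them. Between P0 and P7, Efna3 rose (0.48), Efna1 fell by 0.26 (limma adjusted p 0.0117) and Efna4 was at −0.21 (limma adjusted p 0.112). The Efna1 call ended under quantile normalization (−0.12), and Efna4 was called without P21 replicate 2 and with array weights (both −0.21). Epha6 and Epha3 are near neighbours on chromosome 16, with 4 protein-coding genes between them. Both were higher at P15 than at P7, by 0.56 (SE 0.09, limma adjusted p 2.21e-04) for Epha6 and 0.46 for Epha3, as were 10.4% of all probe sets. Both also fell from P21 to P56 (−0.48 for Epha6, −0.88 for Epha3). They differed elsewhere: Epha3 fell from P0 to P7 (−0.55), from P15 to P21 (−0.32) and from P0 to P56 (−1.29). Epha6 was not called in these 3 comparisons (−0.08, −0.13 and −0.13). Epha6, a receptor of A-class ephrins, had 9.87, 9.78 and 9.98 at P15, above its 9.21, 9.40 and 9.34 at P7.

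Of 12 further genes of the family, 11 were measured (Ephb2 was not analysed here). From P0 to P56, 7 of them fell and 1 rose, and the median change was −1.03, beside 35.3% of all probe sets lower and 40.1% higher. The B-class receptors Ephb1 (−2.68, SE 0.09), Ephb3 (−2.22, SE 0.09), Ephb6 (−1.65, SE 0.11), which lacks kinase activity, and Ephb4 (−1.03, SE 0.09), known from veins, all fell. So did Epha10 (−1.43, SE 0.07), also without an active kinase, Efnb1 (−1.26, SE 0.14), whose human gene is mutated in craniofrontonasal syndrome, and Efna4 (−0.40, SE 0.11). Epha10 had 2 probe sets, of which the higher on average was used. Ephb1 had 7.42, 7.50 and 7.74 at P56 and 10.15, 10.32 and 10.24 at P0, and 1.85 of that fall came by P7. Epha1 rose by 0.73 (SE 0.11), but all its arrays before P56 lay under the lower quartile of their array, so that it is not shown to be above background there. Its P56 arrays were at 6.58, 6.03 and 6.07. Epha2 (−0.04), Epha6 (−0.13) and Efna1 (−0.15) did not pass the test, and their sign turned with medians set to 0 and under quantile normalization. With medians set to 0, Epha2 (0.28) and Epha6 (0.20) were called higher at P56. Without P56 replicate 2 the change of Epha6 was called at −0.22, and without P56 replicate 3 that of Efna1, also at −0.22. The Efna4 call ended with medians set to 0 (−0.07). From P0 to P7, 7 of the 11 fell and 0 rose, with 28.5% of all probe sets lower and 33.6% higher.

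**Figure D4:**
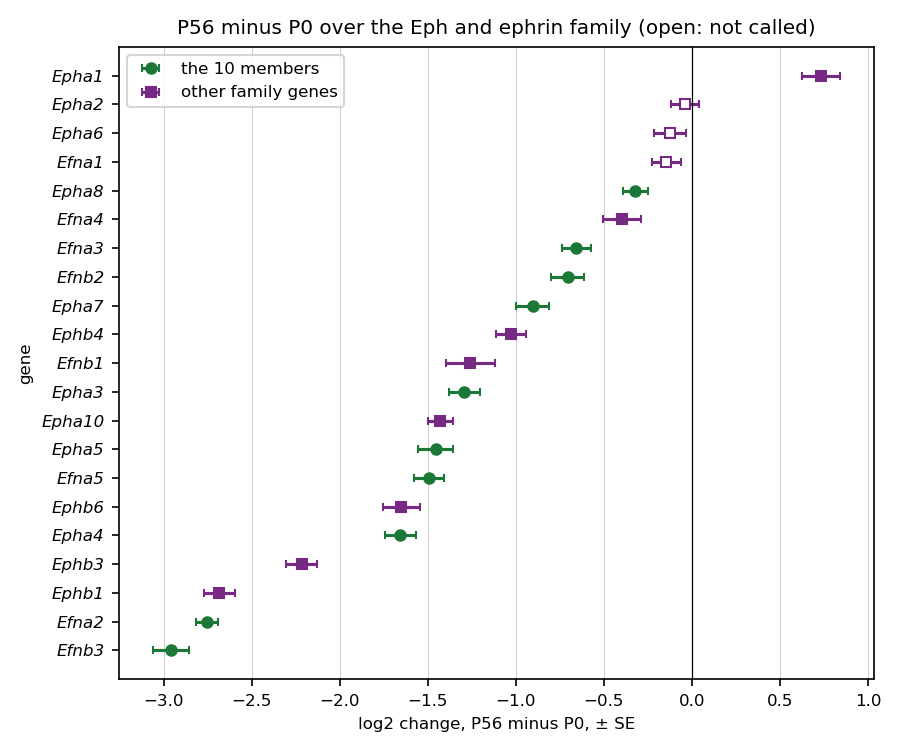
Log2 change from P0 to P56 (horizontal axis, P56 minus P0, with the SE of the fit) of the 10 genes (green circles) and 11 other family genes (purple squares), with open symbols for those not called. Efnb3 (−2.96) and Efna2 (−2.75) are at the lower end with Ephb1 (−2.68), and Epha1 (0.73) is the gene to the right of 0.

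Genes that act with Eph receptors and ephrins inside the cell moved in both directions. Of 40 such partners, 35 had a probe set. Between P0 and P56, 18 of the 35 fell and 10 rose, with a median change of −0.32, against 35.3% lower and 40.1% higher over all probe sets. With medians set to 0, 13 fell and 14 rose. Ptpro, a receptor phosphatase shown in chick to remove phosphate from Eph receptors, was at 6.54 ± 0.03 at P56 and at 10.88 ± 0.07 at P0 (SD, n = 3 each), the largest change (−4.34, SE 0.08, limma adjusted p 1.86e-17). Anks1, the adaptor also called Odin that binds EphA receptors, fell by 1.80 (SE 0.07), and Vav2, a guanine nucleotide exchange factor in growth cone collapse, fell by 1.33 (SE 0.08). Its relative Vav3 rose by 1.30 (SE 0.06).

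The chimaerins, GTPase activating proteins that switch off Rac, rose. Chn1, which acts behind Epha4 in axon repulsion, was at 12.90 ± 0.11 at P56 and 11.45 ± 0.03 at P0 (1.46, SE 0.07), and Chn2 at 12.17 ± 0.09 at P56 and 10.29 ± 0.09 at P0 (1.88, SE 0.07, with SDs of 3 arrays). Sdcbp, the PDZ protein syntenin that binds the ends of B-class ephrins, rose by 1.33 (SE 0.07), and Acp1, a small tyrosine phosphatase, by 1.62 (SE 0.06). The Acp1 value is that of the highest on average of its 5 probe sets. Its call was the same with the 5 averaged, and the others are not described singly. Most of the Chn1 (1.31) and Chn2 (1.46) rise was there at P7, the step at which all 16 Purkinje cell markers rose. Whether these rises belong to that change in makeup was not tested.

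For each of the 10 genes, the most alike genes outside the family were sought by Pearson's r over the 15 arrays. Arrays of the same age share their level, so r mostly follows 5 ages, and it is given as a description. Efnb3 was closest to Farp1 (0.996), an exchange factor of dendrites and synapses, and to Agrn (0.995), the proteoglycan that organises the neuromuscular junction. Agrn averaged 8.26 at P7 and 11.68 at P0. Efna2 was closest to Slc44a5 (0.995), of the choline transporter-like family, and to the tetraspanin Tspan6 (0.994), and Efna5 to Setbp1 (0.995) and the homeobox gene Meis1 (0.993). Meis1, which is also in the brainstem and nuclear neuron list, averaged 9.45 at P7 and 10.74 at P0. Epha4 was closest to the cadherin Cdh10 (0.994) and Tbc1d31 (0.993), Epha7 to the Hippo pathway kinase Lats1 (0.991) and Senp7 (0.975), and Epha5 to Arpp21 (0.989) and Dsel (0.989).

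For the genes with turns in their course, the most alike genes were picked in the same way, so shared turns follow from that choice. Epha3 was closest to Cnpy1 (0.973) and Wdr19 (0.973). Cnpy1 averaged 9.51 at P0, 8.29 at P7, 9.27 at P15, 8.65 at P21 and 7.44 at P56. Efna3 was closest to Imp4 (0.985), a protein of ribosomal RNA processing, and Hgh1 (0.984), both highest at P7. Epha8 was closest to Rgs13 (0.960), which outside P7 averaged less than the lower quartile of any array, and to Slco5a1 (0.948). Efnb2 was closest to the chromatin protein Hmgn2 (0.955) and to Ybx1 (0.949).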

How the data were processed

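The 15 arrays were Affymetrix arrays of RNA captured on tagged ribosomes, and the values used are those the authors deposited, normalized log2 signals per probe set. Affymetrix Power Tools is named in the submitters' processing notes, and no summary method, version or background correction is stated in the sources used here. Base 2 was taken from the range of the values (3.15 to 14.08). Of 22092 probe sets, 20996 had 1 gene symbol in the platform's annotation, 91 had several and 1005 had none there.

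Ages came from the labels. The model was fitted with limma 3.58.1 in R 4.3.3 on all 15 arrays and all probe sets, with a mean per age, and p-values were adjusted by Benjamini-Hochberg within each comparison, with no filter on dim probe sets. The labels do not say if replicate arrays were made from different pools of cerebella, so p-values measure the spread between these arrays, which may be technical. With 3 arrays against 3, an exact permutation test could not go below 0.1. The number of arrays limits the precision. The fit was also run on simulated data with 200 shifted genes. That simulation had independent noise per probe set and no other age effect, unlike these data, so it does not bear on the calls given here.

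Named genes were the 10 described, all other measured Eph and ephrin genes, the 8 partners called for P56 against P0 with the largest change, the 2 most correlated genes per member, and the first 3 genes of each marker list. The members and lists were chosen with earlier results of these data known. The results were recomputed without each array in turn, with a minimum absolute change of 1, with probe sets of 1 gene averaged, without the dimmest 50%, with the replicate number as a block, with a robust trended prior, with weighted arrays, with every array's median at 0, and after quantile normalization. Promoter windows were read from RefSeq sequences of GRCm38.p6.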

Additional observations from a re-analysis of the deposited data

How the results depend on the processing

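Over the 90 changes of single genes followed, the alternatives that kept all arrays left 625 values with their direction and their side of the threshold, turned 16 signs and, with the sign kept, lost 53 calls and gained 11. Of those turned, with medians set to 0, Epha8 lost its call and Epha2 and Epha6 gained one, each for P56 against P0. Leaving out 1 array left 1303, turned 2 signs and, with the sign kept, lost 36 calls and gained 9. The calls of 49 of the 60 changes of the 10 genes were the same without any single array. Where a cause is not given by the construction of the alternative, the cause was not tested. With a minimum absolute change of 1, the 10 genes gave 3 lower and 0 higher for P7 against P0, 0 lower and 0 higher for P15 against P7, 0 lower for P21 against P15, 0 lower and 0 higher for P56 against P21, 6 lower for P56 against P0 and 2 lower for P56 against P7, and the lists had 0 of the other family genes higher and 6 partners lower. With quantile normalization and with array medians set to 0, lower calls for P15 against P7 numbered 1 and higher calls for P56 against P21 numbered 2, and that second count was 0 with array weights. Among the other family genes, 3 were higher at P56 than at P0 with medians set to 0, and 0 higher and 3 lower with the dimmest probe sets removed, which took out genes of the list. Signs turned as follows, quantile normalization first and medians set to 0 second: Epha4 P21 against P15 (−0.024 and −0.024), Efna5 P56 against P21 (0.17 and 0.11), Efnb2 P15 against P7 (0.017 and 0.027), Efnb2 P56 against P7 (0.12 and 0.089), and for P56 against P0 Epha2 (0.068 and 0.28), Epha6 (0.028 and 0.20) and Efna1 (0.081 and 0.18). Epha2 P7 against P0 turned under quantile normalization (0.036), and Epha8 P56 against P0 with medians set to 0 (0.0012). Without 1 array, Epha4 P21 against P15 was −0.029 to 0.046, and counts of the 10 genes were 1 to 2 higher and 1 to 3 lower for P15 against P7, 2 to 7 lower for P21 against P15, 0 to 2 higher for P56 against P21, 9 to 10 lower for P56 against P7 and 10 lower for P56 against P0. The correlation r of the deviations from the age means was computed between arrays of different ages. Over 30 pairs with the same replicate number, r was −0.31 to 0.45 (median −0.003), and 5 pairs were over 0.1. Over 60 pairs with unlike numbers, r was −0.42 to 0.24 (median 0.0022), and 10 were over 0.1. Whether any arrays were paired is not settled by these values. With the replicate number as a block, 10 of the 10 genes were lower at P56 than at P0, 2 were lower for P15 against P7 and 4 for P21 against P15, and 58 of the 60 calls were the same. Signals near the lower quartile of the arrays (5.86 to 6.01) are not shown to be above background, and 0 of the 150 values of the 10 genes lay below it.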

Other observations

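Of 18 genes of the netrin and Slit system, which attract and repel axons at the midline, 15 were lower and 3 higher at P56 than at P0, with a median change of −0.96. Of 31 genes of the semaphorin system, repulsive cues with their plexin and neuropilin receptors, 25 were lower and 2 higher, with a median of −2.09. Over all probe sets, 35.3% were lower and 40.1% higher. From P7 to P56, 11 of the 18 and 24 of the 31 fell, with medians of −0.46 and −0.57, and −0.74 for the 10 Eph and ephrin genes. The share of all probe sets lower was 34.2%. The difference between these lists was not tested.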
